A study of Drosophila melanogaster with 15 samples.

Results

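Insects carry, store and take up iron with a small set of proteins, and 7 genes of that set were followed across all arrays of the series: the transferrin genes Tsf1, Tsf2 and Tsf3, the ferritin subunit genes Fer1HCH and Fer2LCH, the metal importer gene Mvl and the multicopper oxidase gene Mco1. They were found by gene symbol in the array's annotation, and each of the 7 symbols had 1 probe set among the 13966 probe sets that are not controls. All 7 passed the filter on low signals (at least 160 units on at least 3 arrays), as did 11427 probe sets in all. Tsf3 was the only one of the 7 called, meaning an adjusted p under 0.05 over all tested probe sets. Its mean signal was 4.33-fold lower in Relish mutants, 7.34-fold lower in Dif mutants and 6.51-fold lower in dorsal mutants than in wild type larvae, all with E. coli named as their treatment. Of all tested probe sets 1.88%, 2.68% and 3.52% were called in these comparisons. The Relish call of Tsf3 was kept in only 19 of 27 alternative settings. In wild type larvae the mean Tsf3 signal was 4.19-fold higher after E. coli than after PBS, but that difference had an adjusted p of 0.134 and was not called. The ferritin, Mvl, Mco1, Tsf1 and Tsf2 probe sets were called in none of the 10 comparisons between groups.

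Iron is needed by the animal and by bacteria inside it, and withholding it from microbes is a known part of defence in insects as in vertebrates. Transferrins bind ferric iron outside cells, ferritin stores it as a mineral core inside a protein shell, and membrane importers of the Nramp family bring ferrous iron and manganese into cells. In Drosophila larvae much of this takes place in the gut, the fat body and the hemolymph. Relish, Dif and dorsal encode the NF-kappaB proteins of the fly. Relish acts in the Imd pathway, which answers Gram-negative bacteria, and Dif and dorsal act in the Toll pathway.

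Whole larvae of the third instar were used, and each of the 15 arrays was hybridised with RNA of a pool of 20 larvae collected 2 h after the injection. The 5 groups of 3 arrays were Relish E20 mutants, Dif1 mutants and Dorsal1 mutants (here called dorsal mutants), each with E. coli in PBS, then wild type with E. coli in PBS and wild type with PBS alone. The labels name neither the wild type strain nor the larval age in hours. They also do not say that replicates were raised separately, so a p-value here weighs a difference against array-to-array scatter that may be technical. Some arrays of both wild type groups and of the dorsal group share a number in their titles and may share a culture or extract. No mutants injected with PBS were analysed here, and all 9 mutant arrays carry ctr in their titles although E. coli is named as their treatment; a difference between stocks, a difference in the response to bacteria and a missing injection therefore cannot be told apart in the mutant comparisons. The 3 mutant comparisons also share the same 3 wild type arrays. Levels are given as signals, the linear expression measure that Affymetrix software computes for a probe set, and differences between groups as differences of log2(signal + 80) from limma.

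The probe set of Rel, the gene for Relish, was checked first against the labels. It read 18.9, 11.4 and 27.4 signal units in the 3 Relish arrays, 1091.5, 1191.2 and 1272.7 in Dif, 1186.9, 373.5 and 1306.5 in dorsal, 4980.7, 3095.2 and 3328.6 in E. coli-injected wild type and 807.0, 663.6 and 721.8 in wild type with PBS. The Relish arrays lay far below the other 12, as their label says. Replicates of a group correlated at 0.881 to 0.94 over the tested probe sets. Over those probe sets 0.158% were called between E. coli and PBS in wild type, 1.88% between Relish mutants and wild type, 2.68% between Dif mutants and wild type, and 3.52% between dorsal mutants and wild type, all at an adjusted p under 0.05. Against these shares, 0 of the 7 iron genes were called between E. coli and PBS and 1 of 7, Tsf3 each time, in each mutant comparison. The median log2 difference of the 7 genes was -0.163 between E. coli and PBS and 0.0595, 0.0196 and 0.183 in Relish, Dif and dorsal against wild type, where that of all probe sets was 0.000952, 0.0862, 0.11 and 0.103. At an unadjusted p under 0.05 the count was 1 of 7 between E. coli and PBS (4.73% of all probe sets), 3 of 7 in Relish (13.4%), 3 of 7 in Dif (15.7%) and 2 of 7 in dorsal (15.9%).

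**Figure D1:**
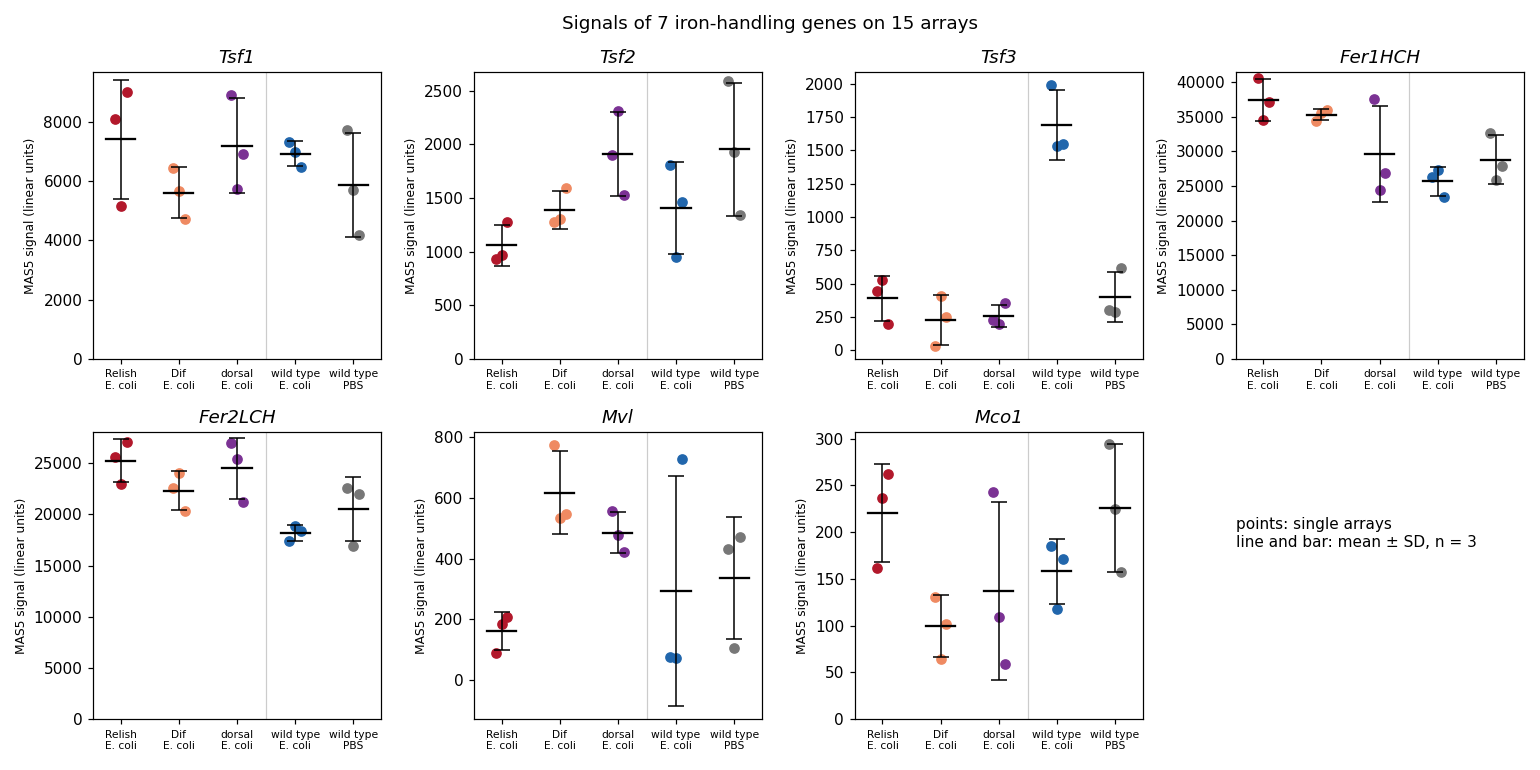
MAS5 signal (linear units) of each of the 7 genes on every array, with 1 panel per gene and the groups in the order Relish, Dif, dorsal, wild type with E. coli and wild type with PBS. Points are single arrays, lines are means and bars are SDs (n = 3); only in the Tsf3 panel do the wild type E. coli arrays, at 1532.3 units and more, stand above all 12 others, the highest of which is 620.1.

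Transferrins bind iron in the fluid outside cells, and Tsf1 is the main one of the hemolymph, where it moves iron between the gut and the fat body. Its signal was 8092.3, 5163.4 and 9010.2 units in Relish mutants, 6458.7, 5672.1 and 4723.8 in Dif mutants and 8916.2, 5745.3 and 6928.8 in dorsal mutants. Wild type larvae gave 7341.4, 6974.5 and 6494.9 units after E. coli and 7716.1, 5701.0 and 4191.2 units after PBS. Every group but Dif overlapped the wild type E. coli arrays, and the highest array of all 15 was 2.15-fold above the lowest. The Dif arrays all lay below the wild type E. coli arrays, 5618.2 ± 868.7 against 6936.9 ± 424.5 units (SD, n = 3 each), which on the log2 scale was -0.31 (SE 0.25, adjusted p = 0.582). In wild type larvae the log2 difference of E. coli over PBS was 0.28 (95% interval -0.25 to 0.81, adjusted p = 1), so an increase of Tsf1 at 2 h was not detectable and one of up to 0.81 was not outside the interval.

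Tsf2 encodes a membrane-attached transferrin needed for the septate junctions of epithelia. Relish mutants gave 926.6, 968.8 and 1280.3 signal units, Dif mutants 1272.5, 1302.2 and 1591.4, and dorsal mutants 1903.2, 2309.7 and 1524.2. The values of wild type larvae were 1806.8, 950.0 and 1463.6 after E. coli and 2590.5, 1927.4 and 1345.6 after PBS. All 3 mutant groups overlapped the wild type E. coli arrays. Relish arrays lay below every dorsal array and below every wild type PBS array, with a log2 difference of -0.80 in each case (SE 0.27), but neither passed the threshold (adjusted p = 0.128 against dorsal and 0.19 against PBS). The difference from PBS ranged from -1.04 to -0.58 when single arrays were left out, and was -0.18 (adjusted p = 0.856) with the summed signal of the midgut markers as a covariate, which was added after seeing the data. Relish midgut sums lay above all wild type sums, so that fit cannot tell midgut content and stock apart. In wild type the log2 difference of E. coli over PBS was -0.45 (SE 0.27, adjusted p = 1).

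Tsf3 encodes the remaining transferrin of the 3, and no role is stated for it here. Its signal was 447.5, 524.7 and 197.8 units in Relish mutants, 35.4, 407.3 and 247.6 in Dif mutants and 225.4, 199.5 and 353.4 in dorsal mutants. Wild type larvae gave 1989.5, 1532.3 and 1543.9 units after E. coli, and 304.3, 284.8 and 620.1 units after PBS. The 3 wild type E. coli arrays were thus higher than all others and did not overlap any group, while the other 4 groups overlapped each other throughout. Of the 7 genes Tsf3 had the widest range, with the highest group mean 7.34-fold above the lowest. The lowest value, Dif replicate 1, is also the only one of 15 under the filter level of 160 units.

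Relish mutants averaged 390.0 ± 170.9 units of Tsf3 and wild type larvae 1688.6 ± 260.7 after E. coli (SD, n = 3 each). This log2 difference of -1.98 (SE 0.45, 95% interval -2.93 to -1.02, adjusted p = 0.0283, limma) was called in 19 of the 27 alternatives tried. The call was lost without Relish replicate 1 (-2.10, adjusted p = 0.0687), without Relish replicate 3 (-1.64, adjusted p = 0.126) and without any 1 of the wild type E. coli arrays (-1.86, -2.04 and -2.04, adjusted p of 0.107, 0.0779 and 0.0878 without replicates 1, 2 and 3). Dif mutants averaged 230.1 ± 186.6 units, a log2 difference of -2.73 from wild type (SE 0.45, 95% interval -3.69 to -1.78, adjusted p = 0.00237). This call was kept in all 27 alternatives, at adjusted p up to 0.02. Without Dif replicate 1, its lowest array, it was -2.14 (adjusted p = 0.00806). Dorsal mutants averaged 259.4 ± 82.4 units, a log2 difference of -2.40 (SE 0.45, 95% interval -3.35 to -1.44, adjusted p = 0.00612), which was kept in 26 of 27 alternatives. The exception averaged the arrays of a group that share a number in their titles, which gave -2.36 (adjusted p = 0.104), and with the same averaging the Relish difference was -2.04 (adjusted p = 0.117).

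Between E. coli and PBS in wild type larvae the Tsf3 groups did not overlap, which held for 1 of the 7 genes and for 12.0% of all probe sets tested. The means were 1688.6 ± 260.7 and 403.1 ± 188.2 units (SD, n = 3 each), and the log2 difference was 1.93 (SE 0.45, 95% interval 0.97 to 2.89, adjusted p = 0.134). By p-value it was number 44 of 11427, past the 18 probe sets called. The call changed with the setting: adjusted p was 0.042 with a pseudocount of 200, 0.0197 with only the 6 wild type arrays in the fit and 0.0279 without Dif replicate 1, and it reached 0.979 with same-titled arrays averaged.

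The mutant levels of Tsf3 were set against each other and against wild type with PBS as well. Relish over Dif gave a log2 difference of 0.76 (adjusted p = 0.527), Relish over dorsal 0.42 (adjusted p = 0.711) and Dif over dorsal -0.34 (adjusted p = 0.728). Single Dif arrays moved these values: without Dif replicate 1 the Dif over dorsal difference turned to 0.26 and the Relish over Dif difference was 0.16, and without Dif replicate 2 they were -0.78 and 1.20. Relish over dorsal ranged from 0.20 to 0.76 with single arrays left out. Against PBS-injected wild type the differences were -0.05 for Relish (95% interval -1.01 to 0.91), -0.80 for Dif (-1.76 to 0.15) and -0.47 for dorsal (-1.43 to 0.49). With single arrays left out these ranged from -0.27 to 0.29, from -1.25 to -0.21 and from -0.66 to -0.17. None of the 6 was called, and each of the 3 intervals against PBS reaches past a decrease of 1 log2 unit. Over these pairs the calls among all probe sets were 1.15% for Relish over Dif, 3.05% for Relish over dorsal, 5.18% for Dif over dorsal, and 1.14%, 2.14% and 2.97% for Relish, Dif and dorsal over wild type with PBS, while 0 of the 7 iron genes were called in any of them. Groups did not overlap for 3 of the 7 between Relish mutants and wild type with PBS (Tsf2, Fer1HCH and Fer2LCH, beside 20.7% of all probe sets) and for 3 of the 7 between Dif mutants and wild type with PBS (Fer1HCH, Mvl and Mco1, beside 25.0%).

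**Figure D2:**
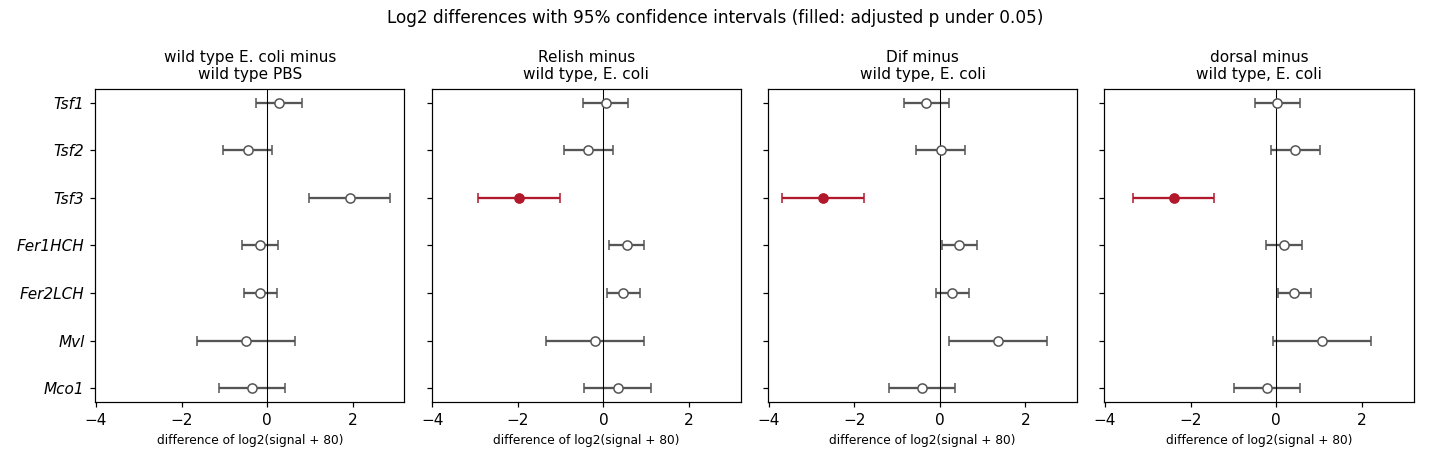
Differences of log2(signal + 80) for the 7 genes (rows) in 4 comparisons (panels: wild type E. coli minus PBS, then Relish, Dif and dorsal minus wild type, all with E. coli). Points are limma estimates, bars 95% intervals, and filled points have an adjusted p under 0.05; these are Tsf3 at -1.98, -2.73 and -2.40 in the mutant panels.

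Of the 9183 single-symbol genes tested, CG6429, CecB and Cpr47Eb had the log2 profiles most like that of Tsf3 over the 15 arrays, with Pearson correlations of 0.83, 0.82 and 0.81. This is a description, since the arrays share their groups and their scaling. The genes were also picked on these same arrays, so their calls below give no independent support. CG6429 stood at 236.8, 149.2 and 74.4 units in Relish mutants, 231.8, 268.3 and 190.1 in Dif mutants, 163.8, 37.4 and 221.9 in dorsal mutants, 1381.1, 1055.3 and 1708.9 in E. coli-injected wild type and 135.9, 185.3 and 587.0 in wild type with PBS. As with Tsf3, its wild type E. coli arrays lay above all others. It was called lower in each mutant (log2 difference -2.68, -2.22 and -2.81, adjusted p of 0.00254, 0.0112 and 0.00159 in Relish, Dif and dorsal), though leaving out replicate 3 of wild type with E. coli ended the Dif call (adjusted p = 0.0633). It was not called between E. coli and PBS (2.09, adjusted p = 0.0805), but was called in 2 of 18 alternatives, without wild type PBS replicate 3 (2.59, adjusted p = 0.0225) and with a pseudocount of 200 (1.74, adjusted p = 0.0261). CecB encodes a cecropin, an antibacterial peptide. In Relish mutants it read 159.1, 42.1 and 165.9 units, in Dif mutants 85.1, 489.8 and 184.4, and in dorsal mutants 364.0, 78.8 and 247.2, while wild type larvae gave 4454.2, 2288.1 and 2749.9 after E. coli and 61.3, 256.3 and 179.7 after PBS. Its difference of E. coli over PBS, 3.76 on the log2 scale (adjusted p = 0.00155), was called where that of Tsf3 was not; the 2 genes' differences were not tested against each other. Cpr47Eb, a cuticle protein gene, was called in dorsal mutants (-1.52, adjusted p = 0.0259), though not without dorsal replicate 1 or 2 or any 1 wild type E. coli array (adjusted p of 0.0584 to 0.114), and was not called in Relish (adjusted p = 0.491) or Dif (adjusted p = 0.223). Its Dif arrays, at 4598.0 to 13308.4 units, overlapped those of wild type with E. coli, at 12939.2 to 18137.1.

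**Figure D3:**
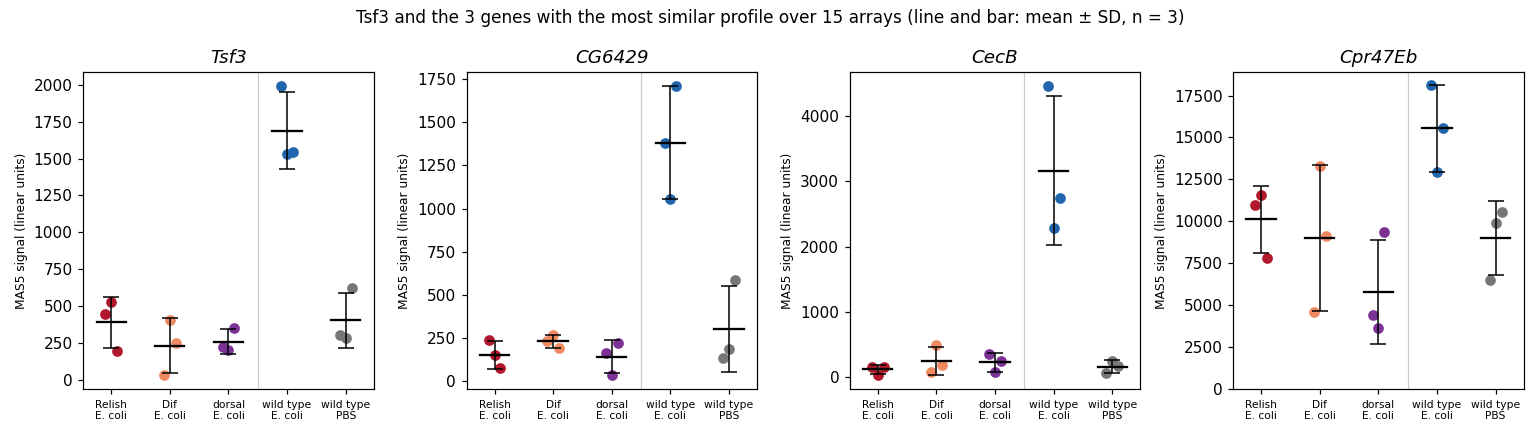
MAS5 signal (linear units) of Tsf3, CG6429, CecB and Cpr47Eb on each array, by group, with means and SDs (n = 3). In the first 3 panels the wild type E. coli arrays lie above the other 12; in the Cpr47Eb panel 1 Dif array, at 13308.4 units, lies within the wild type E. coli range.

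Ferritin of the fly is a secreted shell built of heavy and light chains. Fer1HCH encodes the heavy chain, which oxidises ferrous iron, and Fer2LCH the light chain, on which the iron core forms; both chains are needed for the shell. Fer1HCH read 40600.5, 34502.4 and 37150.4 units in Relish mutants, 34389.9, 35485.7 and 35941.1 in Dif mutants and 37503.9, 24432.2 and 26830.7 in dorsal mutants. Wild type larvae had 26275.4, 27347.7 and 23363.7 units after E. coli and 32695.4, 25878.1 and 27880.8 after PBS. The Relish and Dif arrays lay above all wild type E. coli arrays, and the dorsal arrays overlapped them. Fer2LCH read 25653.4, 22959.7 and 27087.0 units in Relish mutants, 22572.3, 24072.0 and 20330.0 in Dif mutants and 26953.3, 25422.4 and 21178.8 in dorsal mutants, against 17353.4, 18848.2 and 18386.0 in E. coli-injected wild type and 22599.5, 16923.2 and 21990.6 in wild type with PBS. For the light chain every mutant array lay above every wild type E. coli array.

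No ferritin difference was called, and none of the ratios of mean signals passed 1.46-fold. For Fer1HCH the log2 difference from wild type was 0.54 in Relish (SE 0.20, adjusted p = 0.214), 0.46 in Dif (SE 0.20, adjusted p = 0.258) and 0.18 in dorsal (SE 0.20, adjusted p = 0.72), with mean signals 1.46-fold, 1.37-fold and 1.15-fold those of wild type. The dorsal value was -0.00014 without dorsal replicate 1 and 0.31 without dorsal replicate 2. For Fer2LCH it was 0.47 in Relish (SE 0.18, adjusted p = 0.258), 0.29 in Dif (SE 0.18, adjusted p = 0.466) and 0.42 in dorsal (SE 0.18, adjusted p = 0.266), or 1.39-fold, 1.23-fold and 1.35-fold. None was called under any of the 27 alternatives, the lowest adjusted p being 0.144 for Fer1HCH in Relish and 0.1 for Fer2LCH in dorsal. Groups that do not overlap are common here: they were seen for 3 of the 7 genes in Relish against wild type (19.4% of all probe sets), 4 of 7 in Dif (22.4%) and 2 of 7 in dorsal (21.7%). The median log2 difference over all probe sets was 0.0862, 0.11 and 0.103 in the 3 comparisons, and quantile normalization brought it to 0.011, 0.00904 and 0.0125. With it the Fer1HCH differences were 0.59, 0.56 and 0.18 and those of Fer2LCH 0.49, 0.39 and 0.39 in Relish, Dif and dorsal.

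Between E. coli and PBS in wild type larvae both ferritin genes read slightly lower after E. coli, with overlapping groups. The log2 difference was -0.16 for Fer1HCH (95% interval -0.58 to 0.25) and -0.16 for Fer2LCH (95% interval -0.55 to 0.23), each at an adjusted p of 1. Against wild type with PBS the Relish arrays were higher without overlap for both genes, 0.38 for Fer1HCH (adjusted p = 0.405) and 0.31 for Fer2LCH (adjusted p = 0.483), and again not called.

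Fer1HCH and Fer2LCH are neighbours on the same chromosome arm, with overlapping annotated spans in the RefSeq table. Their log2 signals correlated over the 15 arrays at a Pearson r of 0.66 (permutation p = 0.00858, 0.0172 after adjustment over 2 relations) and a Spearman rho of 0.69 (permutation p = 0.0056, adjusted 0.0112), and without the 2 arrays farthest from the median of Fer1HCH r was 0.83. Arrays of a group share that group's level in both genes. After the group means were taken off, r was 0.50 (exact permutation p within groups = 0.185, adjusted 0.185) and rho 0.51 (exact permutation p = 0.143, adjusted 0.143), so a relation between replicates was not detectable. The arrays also share 1 scaling factor each across all genes, and its part in the correlation was not tested.

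**Figure D4:**
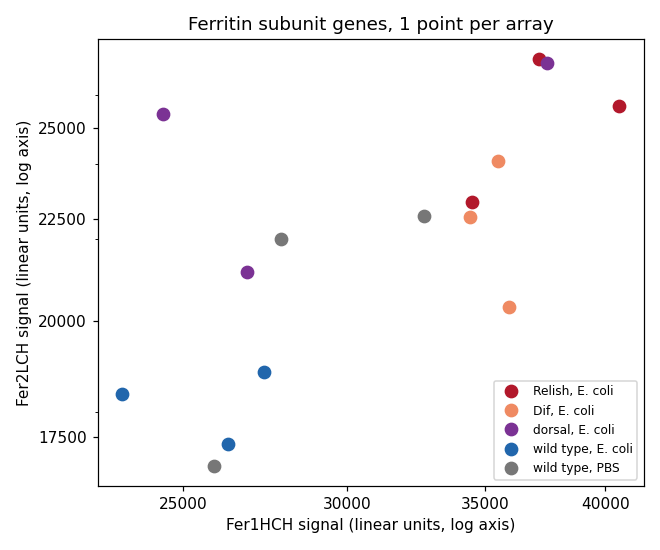
Fer2LCH signal against Fer1HCH signal (linear units on log axes), with 1 point per array coloured by group. The wild type E. coli arrays lie at the lower left, between 23363.7 and 27347.7 units of Fer1HCH, and the Relish arrays at the upper right, from 34502.4 units up. Other groups reach both corners: wild type PBS replicate 2, at 25878.1 units, lies at the lower left, and dorsal replicate 1, at 37503.9, among the Relish arrays. Dif replicate 2, at 35485.7, lies above Relish replicate 2 on both axes.

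Mvl encodes the fly's Nramp-type importer of iron and manganese. Its signal was low and uneven: 88.7, 185.1 and 205.9 units in Relish mutants, 774.7, 533.0 and 546.8 in Dif mutants, 556.0, 479.6 and 422.9 in dorsal mutants, 74.1, 72.9 and 730.3 in E. coli-injected wild type and 431.6, 105.8 and 472.6 in wild type with PBS. Wild type E. coli replicate 3 read about as high as the Dif arrays, and the other two arrays of that group were the lowest of all 15. With it the log2 difference from wild type was 1.37 in Dif (SE 0.54, adjusted p = 0.217) and 1.08 in dorsal (SE 0.54, adjusted p = 0.351), neither of them called. Without that single array the Dif difference was 2.17 (SE 0.45, adjusted p = 0.0224) and was called, and the dorsal difference was 1.88 (adjusted p = 0.0507). The Relish difference from wild type was -0.19 (SE 0.54, adjusted p = 0.919). Its direction turned without that array (0.61, adjusted p = 0.689), whereas it was -0.59 and -0.60 without replicates 1 and 2 of the same group. It also turned with the midgut marker sum as a covariate (0.30) and without Relish replicate 1 (0.04).

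Among the mutants Mvl read lower in every Relish array than in any Dif or dorsal array. The Relish mean was 159.9 ± 62.5 units, against 618.2 ± 135.7 in Dif and 486.2 ± 66.8 in dorsal mutants (SD, n = 3 each). Neither difference passed the threshold over all probe sets, at -1.56 over Dif (SE 0.54, adjusted p = 0.191) and -1.27 over dorsal (SE 0.54, adjusted p = 0.241). In this pair of comparisons 2 of the 7 genes did not overlap in each, where 16.5% of all probe sets did not between Relish and Dif and 20.4% between Relish and dorsal. The other non-overlapping gene was Mco1 against Dif and Tsf2 against dorsal. Differences of log2(signal + 80) understate the change of genes with signals as low as these.

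Mco1 encodes a secreted multicopper oxidase that is linked to iron homeostasis in flies. Its signals lay near the filter level, with 8 of 15 arrays at 160 units or more. Relish mutants gave 161.9, 236.7 and 262.6 units, Dif mutants 130.8, 64.5 and 102.1, and dorsal mutants 243.1, 109.3 and 59.2. Wild type larvae gave 184.9, 118.0 and 170.8 units after E. coli and 294.4, 224.9 and 157.8 after PBS. All groups overlapped wild type with E. coli, and the log2 differences of 0.33 in Relish, -0.42 in Dif and -0.21 in dorsal (SE 0.37 each) had adjusted p of 0.759, 0.624 and 0.847. The dorsal value ranged from -0.54 to 0.07 with single arrays left out. The Dif arrays lay below all Relish arrays (0.75 for Relish over Dif, adjusted p = 0.408) and below all PBS arrays (-0.76 for Dif over wild type PBS, adjusted p = 0.288). In wild type the difference of E. coli over PBS was -0.35 (95% interval -1.13 to 0.43). A difference of that size was not detectable here, and the part of the low signals in that was not tested.

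The pools hold whole larvae, so fewer cells of a tissue and less RNA per cell cannot be told apart, and markers of 4 tissues were read beside the iron genes. The summed signal of 10 midgut protease and maltase genes (10 of 10 on the array) was 580190 to 689790 units in Relish mutants, 479950 to 560090 in Dif mutants, 494990 to 582070 in dorsal mutants, 315450 to 530930 in E. coli-injected wild type and 238870 to 477690 in wild type with PBS. Its median was 624780, 515270 and 540580 units in Relish, Dif and dorsal, against 393650 in wild type with E. coli. The Relish sums lay above all wild type sums, while the Dif and dorsal sums overlapped those of E. coli-injected wild type. None of the 10 genes was called in any mutant, beside 1.88%, 2.68% and 3.52% of all probe sets in Relish, Dif and dorsal. Their median log2 difference from wild type was 0.45 in Relish, -0.05 in Dif and 0.39 in dorsal, beside 0.0862, 0.11 and 0.103 over all probe sets. The trypsin gene alphaTry was at -0.84 in Dif and 1.20 in dorsal. With this sum as a covariate, an alternative chosen after seeing the data, Tsf3 stood at -1.84 in Relish (adjusted p = 0.143, no longer called). Its SE there was 0.61, against 0.45 without the covariate. In Dif Tsf3 was at -2.65 (adjusted p = 0.0109) and in dorsal at -2.31 (adjusted p = 0.0186). Because the Relish sums did not overlap wild type, this fit cannot tell midgut content and stock apart in Relish. Under the same covariate the Fer1HCH difference was 0.63 in Relish and 0.51 in Dif, where it was 0.54 and 0.46 without the covariate. It was not called, and the part of midgut content in it was not tested.

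The 9 hemocyte markers (9 of 9) summed to 39683 to 49241 units in Relish mutants, 20929 to 29763 in Dif mutants, 17797 to 22008 in dorsal mutants, 13266 to 26961 in E. coli-injected wild type and 17028 to 28021 in wild type with PBS. Their median log2 difference from wild type was 0.45 in Relish, 0.43 in Dif and 0.26 in dorsal, beside 0.0862, 0.11 and 0.103 over all probe sets. Calls were made for 2, 2 and 3 of the 9, all of them higher, beside 1.88%, 2.68% and 3.52% of all probe sets. Markers also went the other way: the lowest were vkg in Relish (-0.49) and dorsal (-1.11) and lz in Dif (-0.57), not called. PPO1, a prophenoloxidase gene of crystal cells, was called in Relish (2.52, adjusted p = 1.76e-05), Dif (1.15, adjusted p = 0.0166) and dorsal (0.93, adjusted p = 0.0431). The other calls were PPO2 in Relish (1.94), NimC1 in Dif (1.98), and Hml and Pxn in dorsal (1.27 and 1.02). A dimmer PPO2 probe set, at a mean of 186.4 units, gave 0.25 in Relish and was not called (adjusted p = 0.867). NimC1 averaged 209.2 units and was called narrowly (adjusted p = 0.0487). Between E. coli and PBS none of the 9 markers was called. Fat body markers, of which 4 of 7 were on the array, summed to 172480 to 306100 units in Relish, 162630 to 318240 in Dif, 248620 to 366610 in dorsal, 159170 to 196170 in E. coli-injected wild type and 135120 to 188240 in wild type with PBS. The salivary glue genes (6 of 6) varied most, 2350.8 to 387410 units in Relish, 41824 to 358310 in Dif, 259900 to 539740 in dorsal, 5423.3 to 221080 in E. coli-injected wild type and 58693 to 161770 in wild type with PBS. No fat body marker was called (median log2 difference 0.39, 0.23 and 0.57 in Relish, Dif and dorsal), though the dorsal fat body sums lay above all wild type sums. Among these markers Fbp1 was highest, at 2.59, 0.60 and 4.32, and apolpp lowest, at -0.38, -0.71 and -0.27, in the same order. The glue medians were 0.72, 1.57 and 3.61, and 1 of the 6, the glue protein gene Sgs4, was called higher in each mutant (6.22, 6.21 and 8.35, adjusted p of 0.00407, 0.00414 and 0.000354). This count stands beside 1.88%, 2.68% and 3.52% of all probe sets called, and the medians beside 0.0862, 0.11 and 0.103. With the glue sum as a covariate, likewise added after seeing the data, Tsf3 remained called in all 3 mutants (-1.91, -2.54 and -2.04, adjusted p of 0.0256, 0.00447 and 0.045 in Relish, Dif and dorsal). Dorsal glue sums lay above all wild type sums, so in dorsal this fit cannot tell glue content and stock apart. The part of the hemocyte and fat body sums in any iron gene's difference was not tested.

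The other genes that handle iron and related metals were read in 4 lists. Of the 11 tested genes of iron regulation and other carriers, which include the iron regulatory proteins and mitoferrin, none was called in any of the 4 comparisons. Their median log2 difference was -0.12 between E. coli and PBS, and -0.18, -0.13 and -0.11 in Relish, Dif and dorsal against wild type. Copper and zinc handling (21 tested of 24 listed) also had no call, with medians of -0.19, -0.01, 0.09 and 0.08 in the same order. In the Fe-S cluster list, which also holds proteins that carry such clusters (18 tested of 21), 0 were called between E. coli and PBS, 0 in Relish, 1 lower in Dif (beside 2.68% of all probe sets called) and 2 lower in dorsal (beside 3.52%), with medians of -0.09, 0.02, 0.14 and -0.04. In heme synthesis (8 tested of 10) the only calls were 2 lower in dorsal, again beside 3.52% of all probe sets, and the medians were -0.21, 0.07, 0.31 and -0.08. Over all probe sets the medians were 0.000952, 0.0862, 0.11 and 0.103.

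The called list members were Cisd2, ND-75, Alas and Cox10. Cisd2, which encodes an Fe-S protein of internal membranes, gave 723.7, 660.0 and 587.7 units in Dif mutants and 673.0, 1019.1 and 844.0 in dorsal mutants, against 1773.6, 1517.9 and 1747.4 in E. coli-injected wild type. All mutant arrays of both stocks lay below wild type, the difference being -1.26 on the log2 scale in Dif (SE 0.22, adjusted p = 0.00396) and -0.94 in dorsal (SE 0.22, adjusted p = 0.0247). The Dif call was kept in all 18 alternatives and the dorsal call in 10 of 18. The dorsal call was lost without dorsal replicate 1 and without any 1 wild type E. coli array, at adjusted p of 0.0588 to 0.111.

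ND-75, a respiratory complex I subunit with Fe-S clusters, read 1966.6, 2298.2 and 2340.1 units in dorsal mutants and 3110.1, 5484.4 and 5436.6 in E. coli-injected wild type. Its log2 difference was -1.02 (SE 0.22, adjusted p = 0.0133). Alas encodes the first enzyme of heme synthesis. It gave 2301.9, 2590.1 and 2352.1 units in dorsal mutants and 4874.3, 5053.6 and 4845.4 in wild type, a log2 difference of -1.01 (SE 0.22, adjusted p = 0.0179). Cox10, the heme O synthase used for cytochrome c oxidase, gave 312.8, 271.7 and 117.9 units in dorsal mutants and 594.7, 1428.7 and 1231.3 in wild type, a log2 difference of -1.87 (SE 0.48, adjusted p = 0.0391). These 3 calls held in 11, 12 and 9 of 18 alternatives for ND-75, Alas and Cox10. All 3 were lost without dorsal replicate 1 and without wild type E. coli replicate 2 or 3 (adjusted p of 0.0622 to 0.097 for ND-75, 0.0642 to 0.072 for Alas and 0.0631 to 0.173 for Cox10), and that of Cox10 also without dorsal replicate 2 or 3 (adjusted p of 0.0737 and 0.133).

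**Figure D5:**
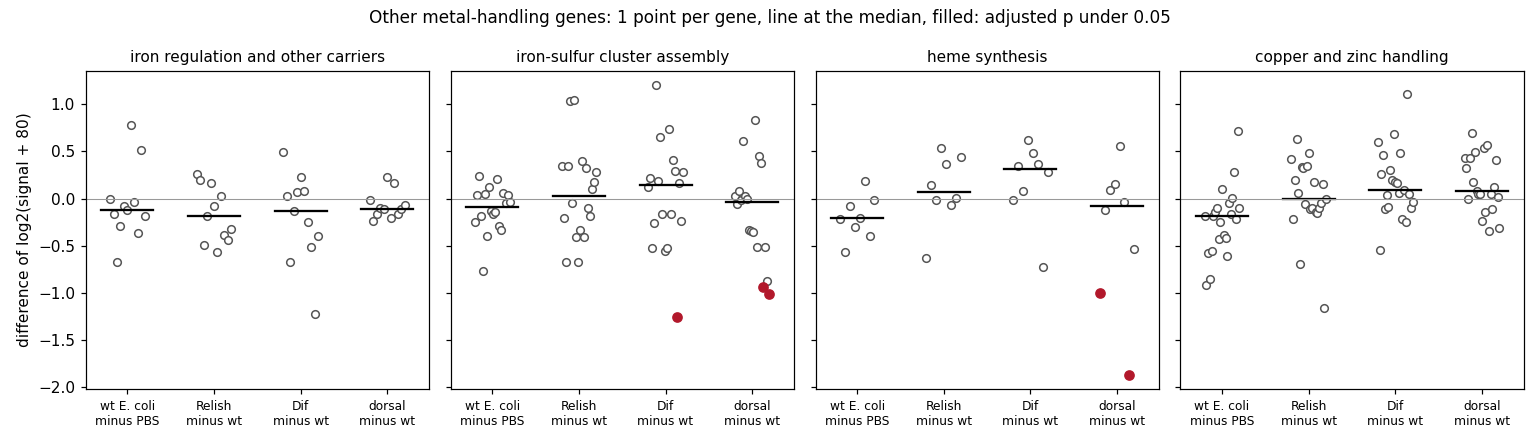
Differences of log2(signal + 80) for the tested genes of 4 metal-handling lists (panels), with 1 point per gene, a line at the median and 1 column per comparison; wt stands for wild type, and the 3 mutant columns compare larvae with E. coli. Filled points, with an adjusted p under 0.05, occur for Cisd2 in Dif and for Cisd2, ND-75, Alas and Cox10 in dorsal, all of them below 0.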

How the data were processed

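Signals came from Affymetrix arrays of the first Drosophila design. Per the labels, the authors made these linear signal intensities with Microarray Suite 5.0 at default settings and global scaling; the trimmed mean was 800.2 to 800.25 on every array. The submitters' processing notes name MAS5. No coordinates appear, because the array's genome build is not given in the sources used here. Gene symbols came from the platform annotation, updated through RefSeq's Release 6 table: 12443 of 13966 probe sets without the 44 controls had 1 symbol, 327 several and 1196 none.

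Groups were read from source names and treatment text. Values were tested as log2(signal + 80), a scale that understates changes of dim genes, for probe sets with signal of at least 160 on at least 3 arrays. One limma model (3.58.1 under R 4.3.3; lmFit, then eBayes with its trend option) with a mean per group took all 15 arrays, with 10 residual degrees of freedom. Tests were two-sided, p-values were Benjamini-Hochberg adjusted over the 11427 probe sets, and a call is an adjusted p under 0.05. The number of arrays limits the precision. The script was tested on simulated data.

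The members, the lists and the naming rule were chosen with earlier results of these data known, among them calls of Tsf3, so they give no independent support. The rule named the 7 members, the 3 genes most correlated with a called member, called list members (at most 3 per list and comparison) and Rel.

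Replicate numbers were checked for pairing: deviations from group means of same-numbered arrays correlated at -0.106 to 0.34, with 7 of 30 pairs over 0.1. Differently numbered arrays of different groups correlated at -0.266 to 0.189, with 6 of 60 pairs over 0.1. These values do not settle whether the numbers pair arrays. The main fit did not pair them, and the number as a block was an alternative. Titles give 1 number to replicates 2 and 3 of both wild type groups and to dorsal replicates 1 and 2, and these may share a culture or extract. Alternatives changed the pseudocount, filter, normalization, variance trend, array weights, arrays in the fit, block, averaging of same-titled arrays, single arrays and 2 tissue covariates.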

Additional observations from a re-analysis of the deposited data

How the results depend on the processing

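Of 1499 values of the 7 genes under an alternative, 1486 kept their side of the threshold, 4 gained a call, 9 lost one and 0 reversed a called direction. Between E. coli and PBS in wild type the number of iron genes called was 1 (Tsf3) instead of 0 with a pseudocount of 200 and with only the 2 groups in the fit, and 0 to 1 when single arrays were left out, the 1 being without Dif replicate 1. For Relish it was 0 instead of 1 with a pseudocount of 16 (Tsf3 at -2.17, adjusted p = 0.0879), with same-titled arrays averaged and with the midgut covariate, and 0 to 1 with single arrays left out. For Dif it was 1 to 2 with single arrays left out, Mvl joining without wild type E. coli replicate 3. For dorsal it was 0 instead of 1 with same-titled arrays averaged, which leaves fewer samples. The cause of these changes was not tested. The 6 other pairs had 0 calls throughout. With the replicate number as a block no iron gene's call changed, Tsf3 having adjusted p of 0.162 between E. coli and PBS and 0.0357, 0.00374 and 0.00823 in Relish, Dif and dorsal; 7 of 15 arrays correlated best with their own number.

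Counts over all probe sets moved more. Between E. coli and PBS, 18 became 58 with array weights, 31 with 2 groups in the fit, 32 and 28 with the glue and midgut covariates, and 10 to 28 without single arrays. For Relish 215 became 95 with same-titled arrays averaged and as few as 116 without single arrays. For Dif 306 became 184 without the trend, 168 with 2 groups, 111 with averaging and as few as 153 without single arrays. For dorsal 402 became 194, 227 and 72 in the same order, 674 with array weights, 173 with the glue covariate and as few as 145 without single arrays. Mco1 had no value under the stricter filter of 320. Signals near 160 units, those of Mco1 and part of Mvl, are a limit of these readings. Their part in the missing calls was not tested.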

Other observations

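Fer3HCH, a further ferritin gene that encodes a mitochondrial heavy chain, was on the array but did not pass the filter. Its signal was 148.7, 14.1 and 292.6 units in Relish mutants, 137.8, 81.8 and 33.5 in Dif mutants, 27.2, 41.1 and 40.3 in dorsal mutants, 33.6, 36.2 and 20.7 in E. coli-injected wild type and 27.2, 65.9 and 91.8 in wild type with PBS. Only 1 of the 15 arrays reached 160 units, so no comparison was made.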
